A study of Homo sapiens with 16 samples.

Results

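DNA replication and S-phase genes are the set described here: 45 genes that license replication origins, unwind and copy DNA at the fork, supply nucleotides, package the new strands and start S phase. They were taken as the rows whose gene symbol equals a listed name. All 45 were found among the 57773 genes measured, and all 45 passed the filter on low values that 16967 genes passed. Expression was measured by RNA-seq in A549 cells, an established line from a human lung adenocarcinoma, as TGF-beta drove an epithelial to mesenchymal transition (EMT). The groups were 8 times of treatment (0, 6, 12, 24, 36, 48, 72 and 96 h) with 2 libraries each, numbered replicate 1 and 2. All groups are the same line, and the 0 h group is the reference. Values are TPM, in which each gene's reads are set against its length and the library's total, and with each time standing on 2 libraries they are given as replicate 1 and then replicate 2.

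Before S phase, the origin recognition complex, CDC6 and CDT1 load the MCM2-7 ring onto DNA, a step called licensing. In S phase CDC45 and the GINS complex turn that ring into an active helicase, and primase and the replicative polymerases copy the opened strands behind it. Most of these genes are transcribed mainly at the border of G1 and S phase by E2F factors, which the retinoblastoma protein holds back in cells that do not cycle, and TGF-beta is known as a cytostatic signal in many epithelial cells.

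The libraries differed in scale. The 6 most abundant small non-coding RNAs took 42.5% (12 h replicate 1) to 64.1% (48 h replicate 1) of the TPM, so that the median of all genes moved with them. Changes are therefore also given after scaling by a trimmed mean of M-values (TMM), which sets the bulk of genes level. Between 29278 and 31187 genes were listed at 0 in each library, apart from 36 h replicate 2 (36116) and 48 h replicate 2 (36294). The 9 epithelial markers of A549 were all past the filter, and summed to 10884 and 11714 TPM at 0 h and to 4322 and 8345 TPM at 48 h. Sums were at most 6.75 TPM for 8 fibroblast markers, 8.66 TPM for 6 endothelial markers and 14.6 TPM for 8 leukocyte markers, with 3, 1 and 4 members past the filter. Transcripts of the 13 mitochondrial genes, which vary with RNA quality, summed to 9095 and 8534 TPM at 0 h and to 3631 and 4909 TPM at 48 h, and their part in the changes below was not tested.

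As deposited, the replication genes were lowest at 48 h in both replicates, while with TMM scaling their median in replicate 1 was lower still at 72 h (-1.40 against -1.31 at 48 h, as log2 ratios to 0 h). Of the 45 genes, 33 were called lower and 0 higher at 48 h against 0 h (limma, Benjamini-Hochberg adjusted p below 0.05 over all genes). Among all genes 6.8% were called lower and 0.796% higher. The log2 fold changes of the 45 genes, on the log2(TPM + 1) scale, ran from -2.56 (TK1) to -0.99 (POLD3) with a median of -1.64, while the median of all genes was -0.46. Of all genes, 2.82% lay at or below the members' median and 13.4% at or below their highest value. Summed over the 45 genes, expression was 1586 and 1813 TPM at 0 h, 376 and 655 TPM at 48 h, and at 96 h 824 and 732 TPM. In bulk RNA, fewer cells in S phase and less of these RNAs per cell cannot be told apart. Nor can the effect of TGF-beta be told apart from that of time in culture, as no untreated cells of the later times are among the samples.

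All 45 genes were lower in both 48 h libraries than in both 0 h libraries, as were 62.3% of all genes. With TMM scaling the same held for 45 of 45 and for 32.3% of all genes, the members' median was -1.17 and that of all genes -0.07. Under that scaling 17 members were called lower, where 2.89% of all genes were (2.46% higher), and the calls over all genes were 477 lower and 406 higher in place of 1154 and 135. With a replicate block (a term for the replicate number) 44 members were called, beside 14.9% of all genes, and with the scaling and the block together 39 were, beside 7.41%. The call rested on single libraries. Leaving out 48 h replicate 1 or either 0 h library lost it for nearly all members. Most calls over all genes were lost in the same fits, so the loss cannot be read as particular to the members. Dropping 48 h replicate 2 did not have this effect. The members' median was -1.33 with 48 h replicate 1 dropped and -1.96 with 48 h replicate 2 dropped. For the 0 h libraries it was -1.69 (replicate 1 dropped) and -1.55 (replicate 2 dropped). All 45 log2 fold changes stayed below 0 in these fits. No label says that replicates came from separate cultures, and the p-values then cover only the spread of these libraries, which may be technical.

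**Figure D1:**
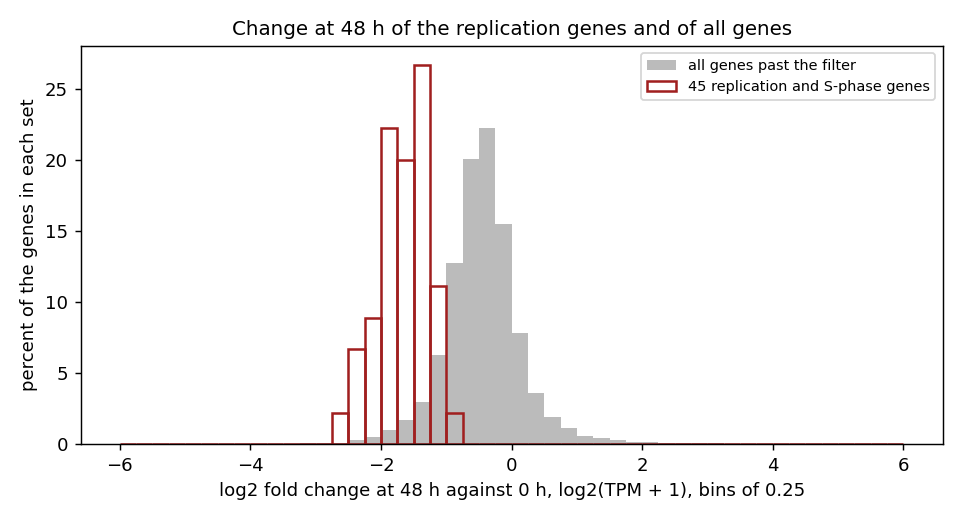
Distribution of log2 fold changes at 48 h against 0 h on the log2(TPM + 1) scale, as percent of the genes in each set, for the 16967 genes past the filter (grey) and the 45 replication genes (red outline). The replication genes occupy the lower part of the distribution, from -2.56 to -0.99, with a median of -1.64 against -0.46 for all genes.

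The promoters of the members are shown because many are textbook E2F targets. A share of E2F letters above that of all genes may thus follow from the choice of genes, and E2F action was not tested. RefSeq windows on GRCh38.p14, from 250 bases before to 50 bases after a transcript start, were matched by symbol for 39 of the 45 genes and not for CCNE2, MCM4, MCM5, POLD3, RPA2 and RPA3. The E2F letters searched were TTTCGCGC, TTTGGCGC, TTTGCCGC and TTTCCCGC on both strands, where a match on one strand may overlap one on the other. They were found for 21 of 39 members (53.8%) and for 3.99% of the 27305 genes of the table, which were not limited to genes past the filter. In lists near the members they were found for 8 of 22 other replication factors (36.4%) and 3 of 25 mitosis and G2/M genes (12%). By window, 44% of the members' 50 windows and 3.31% of all 35116 windows held them. The stretches below are the 250 bases upstream of the start of 4 members, 5′ to 3′ on the strand of the gene, with the E2F letters in capitals. MCM6 (minus strand, chr2:135876444-135876693) holds 4 matches in 2 overlapping pairs, POLA2 (plus strand, chr11:65261712-65261961) 1, E2F1 (minus strand, chr20:33686386-33686635) 2 and PCNA (minus strand, chr20:5126623-5126872, the first of its 2 windows) 1.
MCM6: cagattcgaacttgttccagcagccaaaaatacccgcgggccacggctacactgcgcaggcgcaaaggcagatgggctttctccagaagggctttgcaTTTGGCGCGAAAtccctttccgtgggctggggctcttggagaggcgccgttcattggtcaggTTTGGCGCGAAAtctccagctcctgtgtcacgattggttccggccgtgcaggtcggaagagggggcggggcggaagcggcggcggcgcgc
POLA2: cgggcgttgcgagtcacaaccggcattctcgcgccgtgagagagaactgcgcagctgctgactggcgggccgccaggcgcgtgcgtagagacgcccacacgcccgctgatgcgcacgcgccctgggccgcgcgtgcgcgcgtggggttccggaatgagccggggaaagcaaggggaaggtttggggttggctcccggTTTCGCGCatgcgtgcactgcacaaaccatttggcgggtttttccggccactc
E2F1: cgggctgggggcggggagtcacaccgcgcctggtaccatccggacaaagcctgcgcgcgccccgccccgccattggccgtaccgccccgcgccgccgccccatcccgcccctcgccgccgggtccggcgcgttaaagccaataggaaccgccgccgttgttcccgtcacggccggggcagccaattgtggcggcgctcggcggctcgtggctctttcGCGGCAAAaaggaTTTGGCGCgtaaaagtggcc
PCNA: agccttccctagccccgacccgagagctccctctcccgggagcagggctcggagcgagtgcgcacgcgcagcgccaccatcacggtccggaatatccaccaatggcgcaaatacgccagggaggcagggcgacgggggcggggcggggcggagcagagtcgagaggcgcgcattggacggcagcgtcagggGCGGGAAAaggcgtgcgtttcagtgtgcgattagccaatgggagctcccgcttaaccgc
In MCM6 the pairs lie between positions -152 and -141 and between -90 and -79, counted from the base before the start as -1. The POLA2 match lies at -53 to -46, those of E2F1 at -33 to -26 and -20 to -13, and that of PCNA at -59 to -52. The other window of PCNA held no E2F letters. A match is a description of letters and not a measured binding site.

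Another element known from cell cycle promoters was rare in these windows. The letters TTTGAA of the cell cycle homology region, known from promoters of G2/M genes, were in the windows of 1 of 39 members (2.56%), of 17 of 25 mitosis and G2/M genes (68%) and of 18.2% of all genes. CCAAT, the letters bound by NF-Y, was found for 61.5% of members, 84% of mitosis genes and 39.7% of all genes, both searched on both strands. The median log2 fold change at 48 h was -1.77 for the 21 members with E2F letters and -1.46 for the 18 without, and the ranges overlapped (-2.48 to -1.23 and -2.56 to -1.03). The difference between the members with and without the letters was not tested.

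Licensing genes were among those that changed most. Of 10, 8 were called lower at 48 h (median log2 fold change of the 10 genes -1.86), and all 10 were called with the replicate block. CDC6, the factor that loads the MCM ring, measured 34.8, 16.3, 29.7, 26.4, 19.2, 4.41, 6.48 and 8.81 TPM at 0, 6, 12, 24, 36, 48, 72 and 96 h in replicate 1. In replicate 2 it measured 36.3, 29.9, 17.5, 17.99, 9.78, 9.64, 12.6 and 8.63 TPM at the same times. As deposited, every CDC6 library after 0 h lay below both of 0 h, and both 48 h and both 96 h libraries stayed under 10 TPM. With TMM scaling CDC6 in 6 h replicate 2 (31.5 TPM) lay above both 0 h libraries (31.1 and 30.7 TPM). Its log2 fold change as deposited was -2.27 (SE 0.44, limma adjusted p = 0.0148) at 48 h, -1.86 (SE 0.44, limma adjusted p = 0.0456) at 72 h and -1.91 (SE 0.44, limma adjusted p = 0.0498) at 96 h, which makes it the one member called at all 3 times.

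MCM2, a subunit of the ring, measured 34.5, 17.3, 31.98, 26.2, 21.6, 6.10, 7.68 and 11.5 TPM over the 8 times in replicate 1 and 42.7, 31.5, 22.7, 16.95, 13.2, 10.3, 15.1 and 13.7 TPM in replicate 2. Both series were highest at 0 h and lowest at 48 h, with no overlap between those times. In replicate 1 the lowest library was that of 48 h only as deposited and not with TMM scaling. The log2 fold change was -2.13 (SE 0.40, limma adjusted p = 0.0118) at 48 h and -1.73 (SE 0.40, limma adjusted p = 0.0384) at 72 h, and -1.54 at 96 h with an adjusted p of 0.0758 by limma, or 0.0380 with the replicate block.

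The other ring subunits fell at 48 h as well. MCM7, the most abundant licensing gene, measured 124 and 127 TPM at 0 h, 35.4 and 43.95 TPM at 48 h, and at 96 h 68.8 and 58.5 TPM. For MCM4 the values were 79.7 and 86.5 TPM at 0 h, 13.9 and 27.9 TPM at 48 h, and at 96 h 29.7 and 34.2 TPM. MCM6, whose promoter is printed above, measured 30.8 and 33.6 TPM at 0 h, 4.01 and 11.4 TPM at 48 h, and at 96 h 10.9 and 11.3 TPM. In each of the 3 genes the 48 h libraries lay below all 0 h libraries, and replicate 1 was the lower of the pair. The log2 fold changes at 48 h were -2.07 (MCM6), -2.02 (MCM4), -1.82 (MCM5), -1.64 (MCM7) and -1.53 (MCM3), with limma adjusted p-values from 0.0151 to 0.0251. MCM5 measured 45.3 and 49.3 TPM at 0 h, and at 96 h 16.3 and 14.3 TPM, with a limma adjusted p of 0.0692 as deposited, 0.0376 under the block and 0.0290 under TMM scaling alone. MCM3 measured 45.7 and 53.4 TPM at 0 h, and at 48 h 12.7 and 21.3 TPM.

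The origin recognition genes ORC1 and ORC6 differed in level and in their calls at 48 h. ORC1, the subunit of the origin recognition complex whose level varies most over the cell cycle, measured 9.86 and 11.1 TPM at 0 h, 1.64 and 2.54 TPM at 48 h, and at 96 h 3.39 and 3.36 TPM. It changed by -1.91 (SE 0.39, limma adjusted p = 0.0168) on the log2 scale at 48 h. ORC6, a smaller subunit, measured 31.7 and 39.97 TPM at 0 h, and at 48 h 10.5 and 17.6 TPM. It missed the threshold (log2 fold change -1.32, SE 0.41, limma adjusted p = 0.0664). CDT1, the other loader of the ring, also missed it (log2 fold change -1.47, SE 0.45, limma adjusted p = 0.0620), with 9.94 and 9.35 TPM at 0 h, and at 48 h 2.40 and 3.36 TPM. With the block both genes passed. The ratio of ORC1 to ORC6 within a library was 0.311 and 0.278 at 0 h, 0.156 and 0.144 at 48 h and 0.130 and 0.252 at 96 h.

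**Figure D2:**
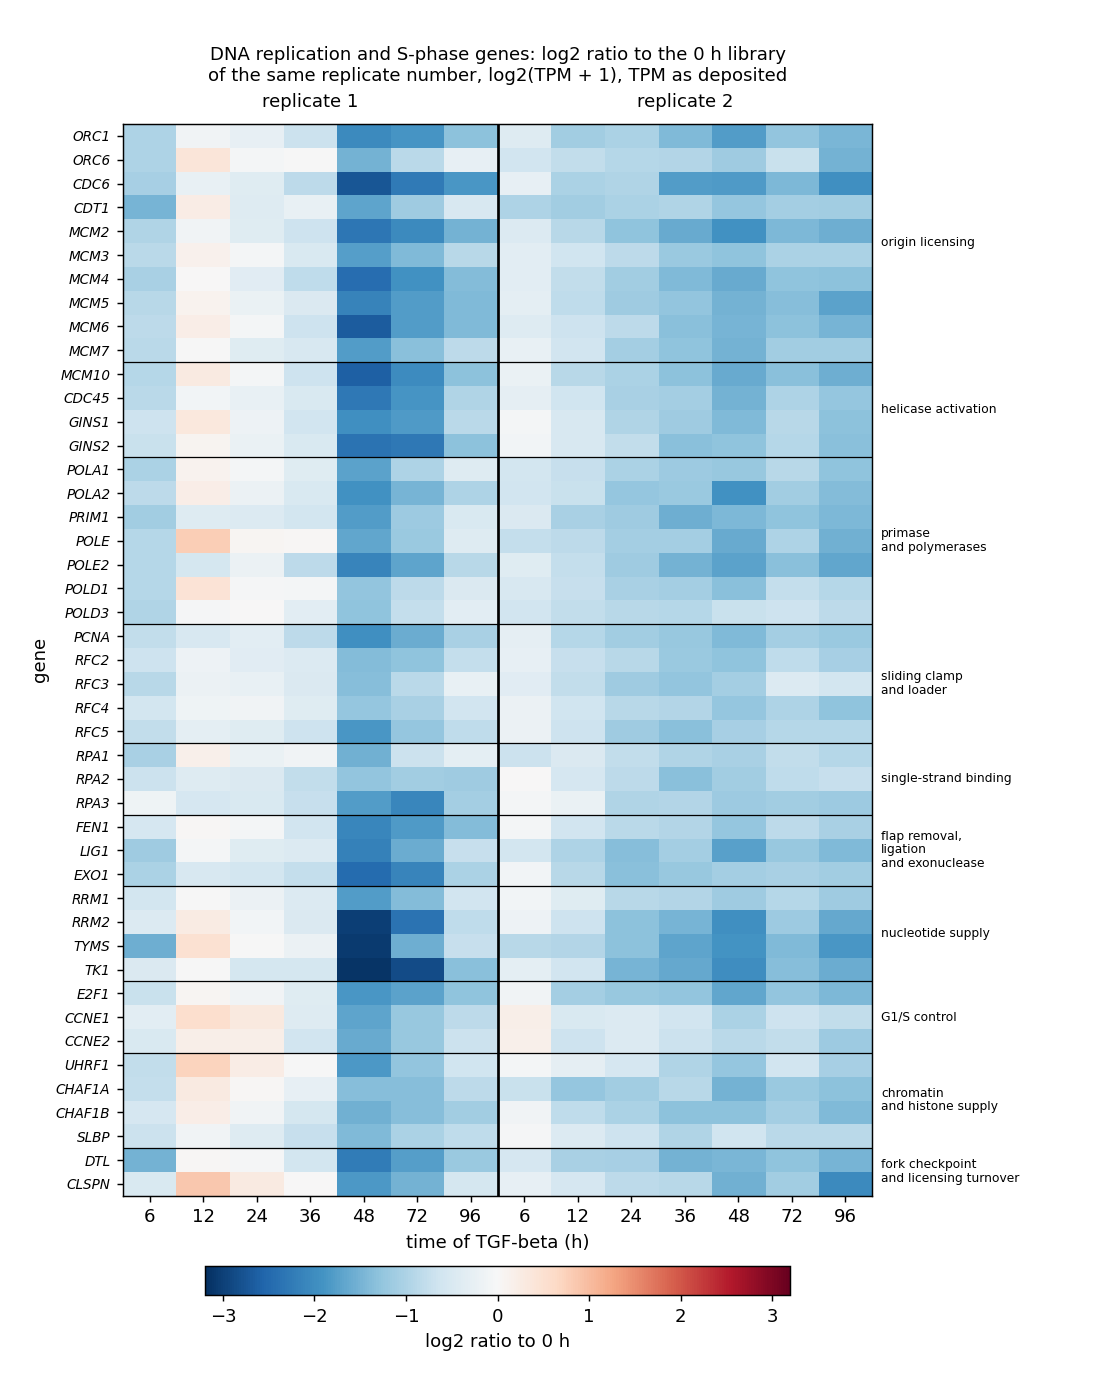
Log2 ratio of each library to the 0 h library of the same replicate number, on the log2(TPM + 1) scale, for the 45 genes (rows, grouped by role) at 7 times in replicate 1 (left) and replicate 2 (right). Blue marks values below 0 h. Replicate 1 is near 0 at 12 and 24 h and darkest at 48 h, while replicate 2 is blue from 12 h on.

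All 4 helicase activation genes fell at 48 h, with a median log2 fold change of -1.86. MCM10, which helps to activate the loaded helicase, measured 18.3 and 19.97 TPM at 0 h, 2.14 and 5.90 TPM at 48 h, and at 96 h 6.81 and 6.05 TPM (log2 fold change -2.11, SE 0.48, limma adjusted p = 0.0243 at 48 h). CDC45, a partner of the ring in the moving helicase, measured 16.97 and 17.2 TPM at 0 h, 2.71 and 5.41 TPM at 48 h, and at 96 h 8.16 and 6.65 TPM (-1.89, adjusted p = 0.0201 by limma). The 48 h values of replicate 1 were the lowest of all 16 libraries for both genes, for CDC45 only as deposited. GINS1 and GINS2, subunits of the GINS complex, changed by -1.68 and -1.83, from 24.7 and 26.9 to 5.65 and 9.45 TPM and from 14.9 and 15.3 to 2.10 and 5.63 TPM. GINS2 stood at 2.28 and 7.61 TPM at 72 h, so that the replicates differed more there than at 0 h.

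Among primase and polymerase genes 4 of 7 were called lower at 48 h, and 6 with the block. POLA2, whose promoter is printed above, is the accessory subunit of polymerase alpha that works with primase. It measured 13.9, 7.31, 16.1, 12.02, 9.62, 2.86, 4.27 and 6.53 TPM over the 8 times in replicate 1 and 17.1, 10.8, 10, 6.62, 6.93, 3.73, 7.34 and 5.87 TPM in replicate 2. Both replicates were lowest at 48 h, at near values, and no later library reached the level of 0 h. Its log2 fold change of -1.94 had the smallest adjusted p of the members at 48 h (SE 0.35, limma adjusted p = 0.00981). POLA1, the catalytic subunit, changed by -1.45, from 17.9 and 21.2 to 4.80 and 8.67 TPM, and PRIM1, the catalytic subunit of primase, by -1.61, from 27.2 and 29.4 to 7.19 and 10.3 TPM.

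For the leading strand polymerase the accessory subunit POLE2 fell (log2 fold change -1.91, SE 0.39, limma adjusted p = 0.0168), from 11.6 and 15.5 TPM at 0 h to 1.91 and 4.02 TPM at 48 h, with 5.83 and 4.20 TPM at 96 h. The catalytic subunit POLE had a log2 fold change of -1.63 and missed the threshold (limma adjusted p = 0.0533), with 21.2 and 25.6 TPM at 0 h, 37.2 and 13.8 TPM at 12 h, and at 48 h 6.0 and 7.74 TPM. The lagging strand polymerase genes POLD1 (catalytic) and POLD3 (accessory) measured 25.7 and 25.7 and 16.5 and 21.4 TPM at 0 h, and at 48 h 10.1 and 9.62 and 6.21 and 12.8 TPM. Neither was called (-1.30, adjusted p = 0.0782, and -0.99, adjusted p = 0.0978, by limma), and POLD3 was the single member not called with the block. Every 48 h library of these genes was nevertheless below both of 0 h.

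PCNA, the sliding clamp that tethers polymerases to DNA, was the most abundant member, and its promoter is printed above. It measured 267, 154, 188, 209, 149, 67.4, 88.7 and 130.2 TPM over the 8 times in replicate 1 and 331, 271, 176, 154, 142, 124, 155 and 145 TPM in replicate 2. The 0 h library was the highest of each replicate, in replicate 2 only as deposited and not with TMM scaling. The 48 h library was the lowest of each, in replicate 1 only as deposited. The log2 fold change was -1.69 (SE 0.35, limma adjusted p = 0.0182) at 48 h and -1.33 (SE 0.35, limma adjusted p = 0.0666) at 72 h, the latter 0.0179 with the block. Of the 4 clamp loader genes RFC2 to RFC5, small subunits of the complex that opens and closes the clamp, 3 were called lower at 48 h (RFC2 -1.33, RFC4 -1.23 and RFC5 -1.47). RFC3 missed the threshold there (log2 fold change -1.23, limma adjusted p = 0.0535). RFC4 measured 28.3 and 35.7 TPM at 0 h, and at 48 h 11.5 and 14.6 TPM, RFC2 31.3 and 34.4 and 11.4 and 13.6 TPM, and RFC5 30.7 and 34.7 and 7.64 and 15.98 TPM. RFC3 stood nearest to its starting level at 96 h, with 19.7 and 20.9 TPM at 0 h, 7.0 and 9.31 TPM at 48 h, and at 96 h 16.7 and 13.6 TPM (log2 fold change -0.41, SE 0.36, limma adjusted p = 0.718 at 96 h). With TMM scaling alone 0 of these 5 genes were called at 48 h.

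The single-strand binding complex RPA, which coats unwound DNA, had a median log2 fold change of -1.28 at 48 h, against -1.64 for all 45 genes. RPA2 fell (log2 fold change -1.19, SE 0.30, limma adjusted p = 0.0332), from 19.95 and 20.6 to 7.68 and 8.96 TPM, and RPA3 fell (log2 fold change -1.48, SE 0.39, limma adjusted p = 0.0419), from 43.8 and 53.7 to 11.96 and 23.4 TPM. RPA1, the large subunit, measured 33.4 and 28.3 TPM at 0 h, 10.9 and 13.3 TPM at 48 h, and at 96 h 26.6 and 14.6 TPM, with an adjusted p of 0.0719 at 48 h by limma. RPA2 was lowest in 36 h replicate 2 as deposited and in 96 h replicate 1 with TMM scaling. RPA3 was lowest in 72 h replicate 1 on both scales, and neither gene was lowest at 48 h.

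All 3 genes of flap removal, ligation and exonuclease work fell at 48 h. LIG1, the ligase that seals nicks between fragments, measured 29.4 and 34.4 TPM at 0 h, 5.80 and 9.65 TPM at 48 h, and at 96 h 17.4 and 12.3 TPM (log2 fold change -1.95, SE 0.39, limma adjusted p = 0.0151 at 48 h). FEN1, the nuclease that removes flaps, measured 42.6 and 44.3 TPM at 0 h, 9.26 and 18.2 TPM at 48 h, and at 96 h 15.7 and 21.2 TPM (-1.66, adjusted p = 0.0301 by limma). EXO1, an exonuclease of mismatch repair and end resection, measured 18.8 and 17.6 TPM at 0 h, and at 48 h 2.60 and 7.81 TPM (-1.77, adjusted p = 0.0418 by limma). The 48 h replicates of EXO1 stood further apart than those of LIG1.

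Nucleotide supply held the 3 largest changes of all members at 48 h. TK1, the cytosolic thymidine kinase, measured 69.8, 50.7, 69.2, 47.3, 47.04, 7.02, 8.69 and 27.1 TPM over the 8 times in replicate 1 and 82.3, 66.04, 53.2, 28.9, 25.7, 20.2, 31.5 and 26.5 TPM in replicate 2. RRM2, the small subunit of ribonucleotide reductase that accumulates in S phase, measured 51.6, 38.1, 62.3, 48.6, 37.3, 5.54, 9.23 and 29.2 TPM in replicate 1 and 78.3, 69.6, 49.3, 31.2, 27.2, 19.4, 34.5 and 24.4 TPM in replicate 2. TYMS, which makes thymidylate, measured 45.9, 14.9, 64.7, 45.8, 40.2, 4.63, 14.8 and 27.1 TPM in replicate 1 and 44.4, 23.4, 22.8, 17.4, 13.2, 11.1, 15.96 and 11.6 TPM in replicate 2. In all 3 genes the 48 h libraries were the lowest of their replicate series, for TK1 in replicate 1 only as deposited. At 48 h replicate 1 was lower than replicate 2.

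The log2 fold changes at 48 h were -2.56 (SE 0.54, limma adjusted p = 0.0193) for TK1, -2.48 (SE 0.58, limma adjusted p = 0.0271) for RRM2 and -2.48 (SE 0.63, limma adjusted p = 0.0364) for TYMS. In linear terms TK1 was 9.94-fold lower in replicate 1 and 4.08-fold lower in replicate 2, RRM2 9.31-fold and 4.03-fold, and TYMS 9.91-fold and 3.99-fold. At 96 h none of the 3 was called, with log2 fold changes of -1.47 (TK1), -1.29 (TYMS) and -1.22 (RRM2) and limma adjusted p-values of 0.227, 0.414 and 0.398. RRM1, the large subunit of the reductase, fell as well at 48 h (log2 fold change -1.47, SE 0.36, limma adjusted p = 0.0294), from 54.8 and 67.5 to 15.02 and 29.99 TPM. TYMS shares its locus with ENOSF1 on the opposite strand (mean 13.5 TPM), and reads of the pair may not be told apart.

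Ratios within a library do not depend on its scale. The ratio of RRM2 to RRM1 TPM was 0.942 and 1.16 at 0 h, 0.369 and 0.647 at 48 h, 0.452 and 0.980 at 72 h and 0.827 and 0.808 at 96 h. That of TK1 to RRM1 was 1.27 and 1.22 at 0 h, 0.467 and 0.672 at 48 h, 0.426 and 0.8945 at 72 h and 0.768 and 0.878 at 96 h. That of CDC6 to MCM7 was 0.281 and 0.286 at 0 h, 0.125 and 0.219 at 48 h and 0.128 and 0.148 at 96 h. All 3 ratios were lower in both 48 h libraries than in both 0 h libraries, and again at 96 h, so these genes changed unequally. The ratio of the E cyclins CCNE1 and CCNE2 lay between 2.65 and 4.38 over the 16 libraries.

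**Figure D3:**
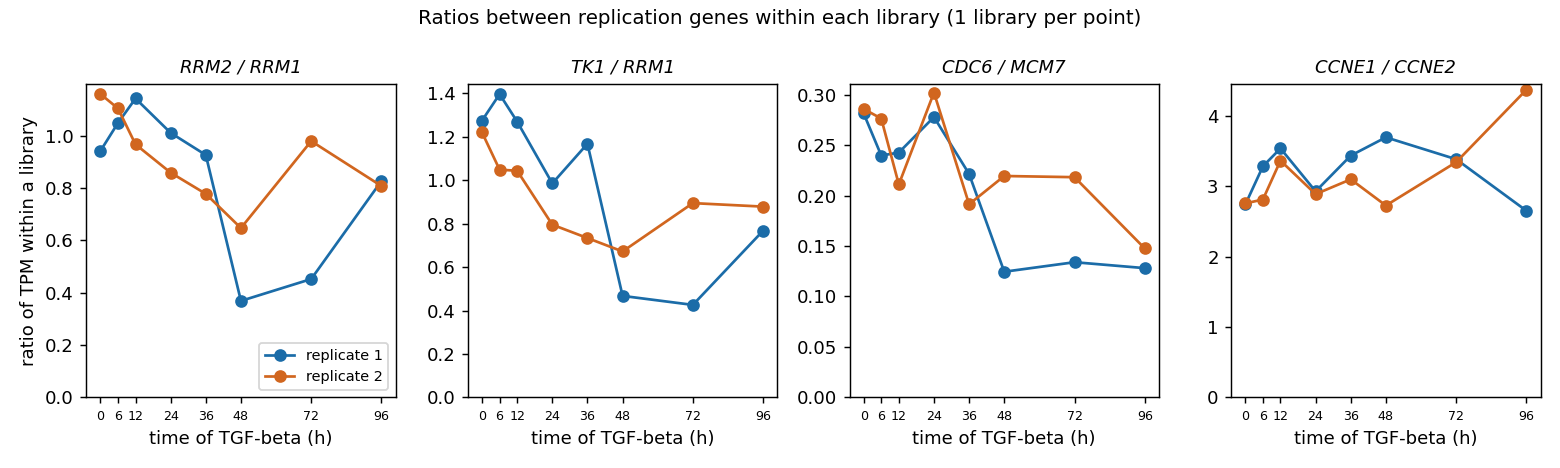
Ratios of TPM between pairs of members within each library against time of TGF-beta in h, for replicate 1 (blue) and replicate 2 (orange), with 1 library per point and axes from 0. RRM2 to RRM1 is lowest at 48 h in both replicates. TK1 to RRM1 is lowest at 72 h in replicate 1 (0.426) and at 48 h in replicate 2 (0.672). CDC6 to MCM7 ends near 0.128 and 0.148 at 96 h, and CCNE1 to CCNE2 stays between 2.65 and 4.38.

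Of the G1/S control genes, E2F1, the activator that drives S-phase genes, was called lower at 48 h. Its promoter, printed above, holds 2 matches of the letters bound by its own family. It measured 14.5, 8.52, 15.3, 13.4, 10.7, 3.23, 3.69 and 5.37 TPM over the 8 times in replicate 1 and 18.1, 16.5, 7.97, 7.17, 6.91, 4.98, 6.98 and 6.10 TPM in replicate 2. The 48 h library was the lowest of each replicate, in replicate 1 only as deposited, and no library from 36 h on reached the 0 h level. Its log2 fold change was -1.77 (SE 0.42, limma adjusted p = 0.0277) at 48 h and -1.35 (SE 0.42, limma adjusted p = 0.142) at 96 h. CCNE1 encodes cyclin E1, which activates CDK2 for S-phase entry, and measured 13.4, 10.5, 20.01, 16.8, 9.87, 3.44, 5.25 and 7.06 TPM in replicate 1 and 16.5, 19.1, 11.5, 11.9, 10.4, 7.75, 10.2 and 9.19 TPM in replicate 2. CCNE1 lay above the 0 h library of its replicate at 12 and 24 h in replicate 1 and at 6 h in replicate 2. It missed the threshold at 48 h (log2 fold change -1.35, SE 0.41, limma adjusted p = 0.0612), as did CCNE2, the second E cyclin (log2 fold change -1.24, SE 0.40, limma adjusted p = 0.0719). CCNE2 was a low gene, with 4.88 and 5.99 TPM at 0 h, and at 48 h 0.930 and 2.84 TPM.

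Chromatin genes were mixed in their calls. The log2 fold changes at 48 h of UHRF1 (-1.54), CHAF1A (-1.45) and SLBP (-1.03) were below 0, as was that of CHAF1B. CHAF1B, a subunit of the assembly factor that deposits histones behind the fork, was the 1 of 4 called lower at 48 h. It changed from 6.06 and 7.83 to 1.44 and 2.53 TPM (log2 fold change -1.43, SE 0.37, limma adjusted p = 0.0386). The large subunit CHAF1A measured 12.9 and 14.6 TPM at 0 h, and at 48 h 4.37 and 4.41 TPM (adjusted p = 0.0511 by limma). UHRF1, which guides maintenance of DNA methylation, measured 26.6 and 23.1 TPM at 0 h, 43.9 and 18.7 TPM at 12 h, and at 48 h 6.67 and 9.19 TPM (adjusted p = 0.0623 by limma). SLBP, which binds the stem-loop of histone mRNAs, measured 35.4 and 36.4 TPM at 0 h, and at 48 h 12.7 and 23 TPM, and stood at the threshold (limma adjusted p = 0.05003). All 4 were called with the block.

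Both fork checkpoint and licensing turnover genes fell at 48 h. DTL, the receptor that marks CDT1 for destruction on replicating DNA, measured 19.7 and 22.3 TPM at 0 h, 3.40 and 7.44 TPM at 48 h, and at 96 h 8.16 and 7.29 TPM (log2 fold change -1.85, SE 0.48, limma adjusted p = 0.0380 at 48 h). CLSPN, the adaptor claspin of the replication checkpoint, measured 11.02 and 15.7 TPM at 0 h, 2.39 and 4.80 TPM at 48 h, and at 96 h 7.19 and 3.09 TPM (log2 fold change -1.68, SE 0.47, limma adjusted p = 0.0482 at 48 h). Their 48 h libraries did not overlap those of 0 h.

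Without regard to role, the 12 members that missed the threshold at 48 h had log2 fold changes from -1.63 (POLE) to -0.99 (POLD3), which overlaps the range of -2.56 to -1.19 of those called. Their limma adjusted p-values ran from 0.05003 to 0.0978, and a miss does not show that they were unchanged.

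**Figure D4:**
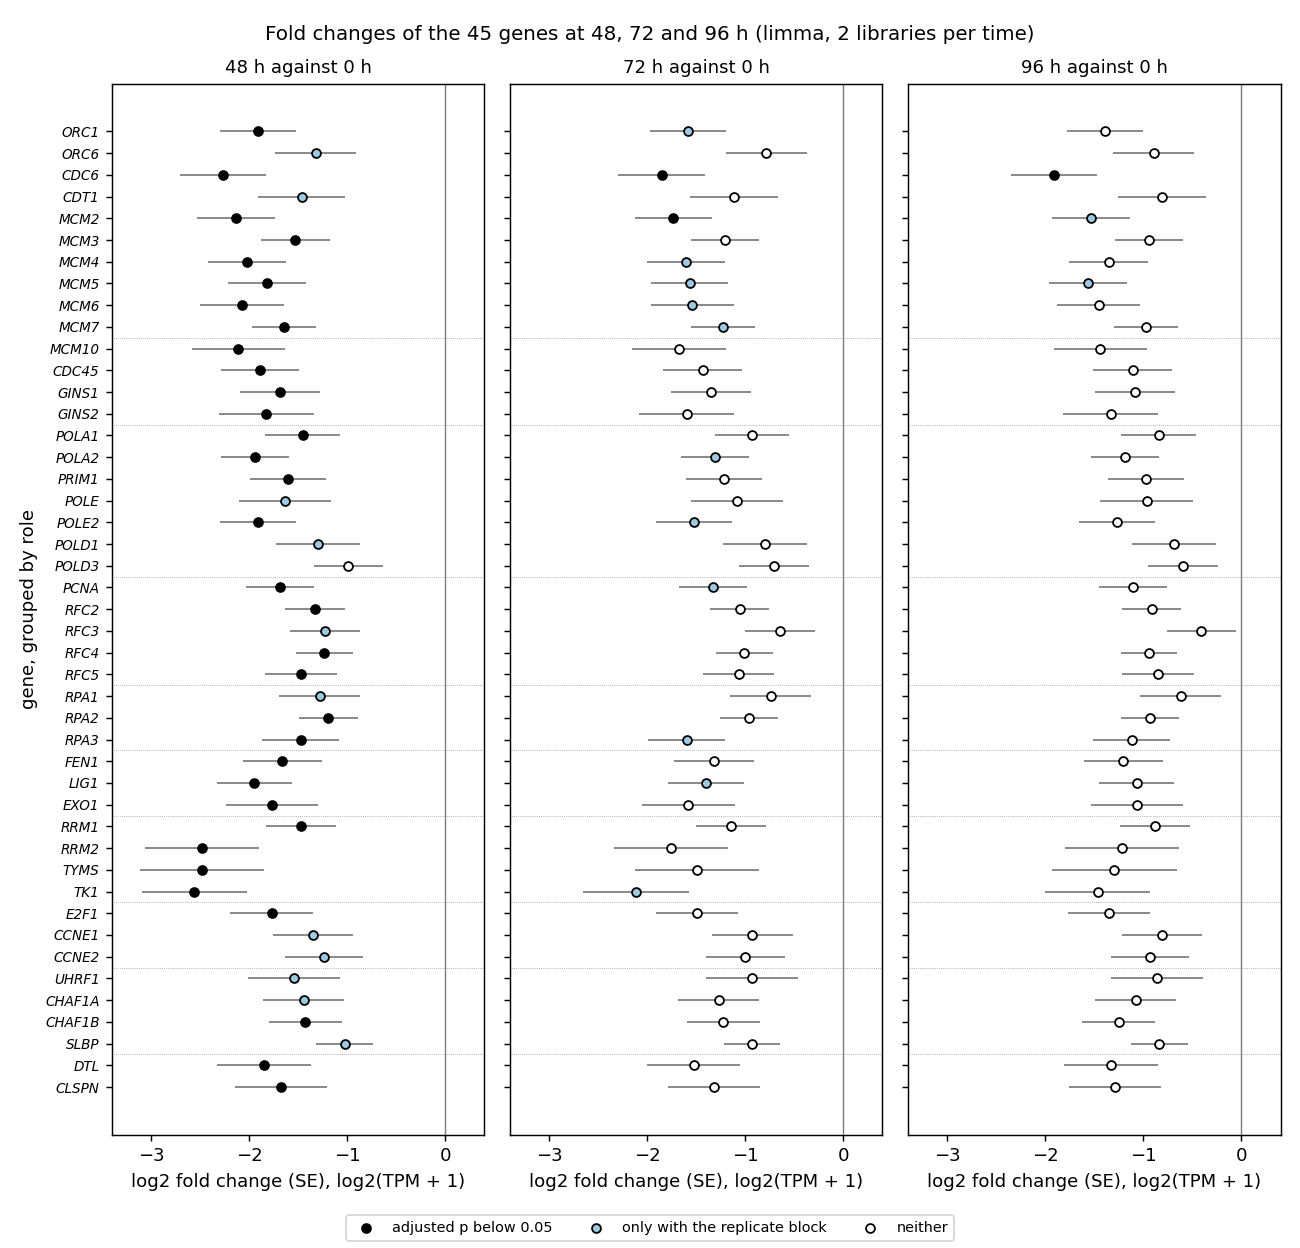
Log2 fold changes against 0 h (points) with their standard errors from limma (bars) for the 45 genes at 48, 72 and 96 h, 2 libraries per time. Filled points have an adjusted p below 0.05, blue points with the replicate block but not without it. All points lie below 0, and 33, 2 and 1 are filled at the 3 times.

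The early comparisons, which ask when the genes first moved, gave no call over the fit of all libraries, and 12 at 6 h over those of 0 and 6 h alone. At 6, 12, 24 and 36 h 0 of 45 genes passed limma's threshold in either direction, beside 0.0177%, 0.13%, 0.595% and 1.33% of all genes called lower and 0%, 0.253%, 0.613% and 0.967% called higher. At an unadjusted p below 0.05, 3, 0, 3 and 20 members were lower and 0 higher. The share of all genes at that unadjusted threshold is not given, here or in the comparisons below. Such counts are therefore not read as particular to the members. With only the 4 libraries of 0 and 6 h in the fit, 12 members were called lower and 0 higher at 6 h, where 20.3% of all genes were called lower and 1.68% higher. The members' medians were -0.58, -0.32, -0.63 and -0.86, where those of all genes were -0.37, 0.03, -0.15 and -0.16. With TMM scaling they were -0.20, -0.36, -0.48 and -0.70. At 36 h RPA2 was called lower with the block (3.15% of all genes), PRIM1 with the scaling (1.54%), and 6 members with both (4.32%).

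Both libraries lay below both of 0 h for 31, 19, 36 and 41 members at 6, 12, 24 and 36 h. The same was true of 61.8%, 16.1%, 37.1% and 33.2% of all genes. The replicates ran apart in this period. Against the 0 h library of the same number, the members' median was -0.86 in replicate 1 and -0.29 in replicate 2 at 6 h, 0.05 and -0.74 at 12 h, -0.19 and -1.02 at 24 h, and -0.49 and -1.20 at 36 h. With TMM scaling these were -0.37 and 0.01, -0.33 and -0.46, -0.18 and -0.74, and -0.54 and -0.84. Replicate 2 was thus the lower one at 12, 24 and 36 h under both scales, and replicate 1 at 6 h.

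Single libraries stood out in this course. From 6 to 12 h in replicate 1, 44 of 45 members went up, as did 92.3% of all genes, and with TMM scaling 23 went up and 22 down. As deposited, the library of 12 h replicate 1 was the highest of all 16 for 15 members, and that of 0 h replicate 2 for 27. With TMM scaling the highest was 6 h replicate 2 for 20 members, 0 h replicate 2 for 17 and 12 h replicate 1 for 5. From 36 to 48 h, 45 members went down in replicate 1 (92.1% of all genes, and 44 members with TMM scaling) and 36 in replicate 2 (53.4% of all genes, and 33 with the scaling). The lowest library was 48 h replicate 1 for 42 members. With the scaling it was 48 h replicate 1 for 21 and 72 h replicate 1 for another 21. No share of all genes is given for these counts of libraries or for the steps under the scaling. They are therefore not read as particular to the members.

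**Figure D5:**
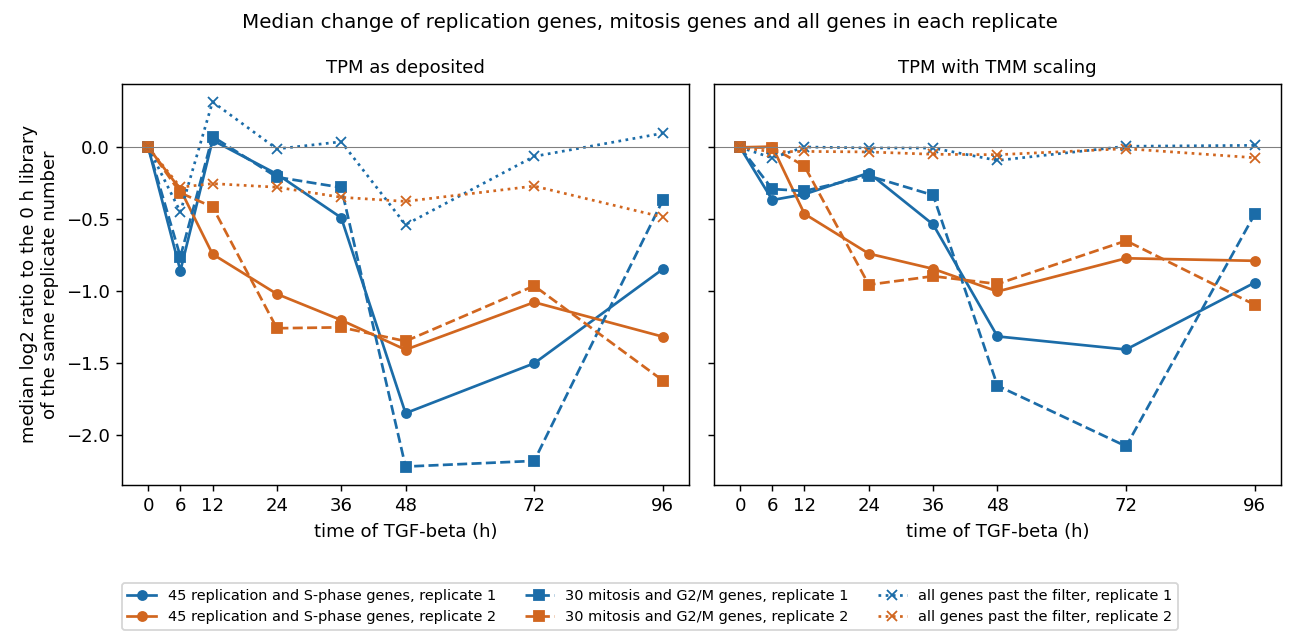
Median log2 ratio to the 0 h library of the same replicate number against time of TGF-beta in h, for the 45 replication genes (circles), 30 mitosis and G2/M genes (squares) and all genes past the filter (crosses), replicate 1 in blue and 2 in orange, as deposited (left) and with TMM scaling (right). The replication genes reach -1.85 and -1.41 at 48 h as deposited, and end at -0.85 and -1.31 at 96 h.

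At 72 and 96 h the genes remained below 0 h with fewer calls. At 72 h 2 of 45 were called lower (MCM2 and CDC6) beside 1.74% of all genes, and at 96 h 1 (CDC6) beside 1.26%. At an unadjusted p below 0.05, 39 and 34 were lower and 0 higher, and the share of all genes called higher was 0.831% and 0.536%. All 45 nevertheless had both libraries below both of 0 h at each time, as had 41.5% and 31% of all genes, and with TMM scaling again 45, beside 26.7% and 23.3%. The medians were -1.31 and -1.08 (all genes -0.16 and -0.20), and -1.11 and -0.87 with the scaling. With the replicate block 13 and 3 members were called, beside 4.22% and 3.31% of all genes. With the scaling and the block 31 and 13 were, beside 5.29% and 4.19%.

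Single libraries decided these calls as well. At 72 h the member calls were lost without 0 h replicate 1, 0 h replicate 2 or 72 h replicate 1, and were not lost without 72 h replicate 2. Calls over all genes in these fits are not given, so the loss cannot be read as particular to the members. CDC6 at 96 h (adjusted p = 0.0498 by limma) was lost without any one of the 4 libraries compared. MCM2, MCM5 and CDC6, all licensing genes, were the 3 called at 96 h with the block.

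The question of a return after 48 h was put in a comparison of 96 h with 48 h, chosen after the values at 48 h were seen. Here 0 members and 0 genes in all were called by limma, and 2 members were higher at an unadjusted p below 0.05. The members' median was 0.60, that of all genes 0.26, and with TMM scaling 0.34 and 0.03. In replicate 1, 45 of 45 members were higher at 96 h than at 48 h, as were 92.3% of all genes. In replicate 2, 30 of 45 were, where 39.9% of all genes were. With the scaling 39 and 38 members were higher. The share of all genes under the scaling is not given, so these counts are not read as particular to the members.

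Between phases of the course nothing passed the threshold. In the comparison of 24 and 36 h with 6 and 12 h, 0 members were called (0.0884% of all genes lower and 0.0884% higher) and 0 reached an unadjusted p below 0.05, with a median of -0.27. In that of 72 and 96 h with 24 and 36 h, 0 were called (0.0648% of all genes lower and 0.0354% higher), 10 were lower at an unadjusted p below 0.05, and the median was -0.50. Without overlap between libraries, 1 and 4 members were lower, beside 2.89% and 4.01% of all genes. Over the whole course limma's moderated F test called 0 members (1.72% of all genes), with 33 at an unadjusted p below 0.05. With the replicate block it called 8 (6.13% of all genes): CDC6, MCM2, MCM4, MCM6, PCNA, POLA2, RPA3 and TK1. All comparisons with 0 h share the same 2 control libraries, so they are not independent of each other.

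Genes around the replication machinery were counted in 5 further lists at 48 h, where 6.8% of all genes were called lower. Called lower were 11 of 27 other replication factors, 5 of 14 other nucleotide supply genes, 6 of 26 measured regulators of the E2F, RB and DREAM system, 8 of 18 genes of replication-coupled repair and checkpoint, and 3 of 9 chromatin assembly genes, and 0 were called higher. Their medians were -1.15, -1.03, -0.70, -1.45 and -1.01. With TMM scaling 4, 2, 4, 5 and 1 of them were called lower, beside 2.89% of all genes, and with the replicate block 18, 9, 7, 12 and 7, beside 14.9%. With both, LIN37 of the DREAM complex was called higher (adjusted p = 0.0221 by limma), a gene named after its values were seen, with 7.05 and 7.44 TPM at 0 h and at 48 h 7.25 and 10.3 TPM. By log2 fold change as deposited, 26 of 27, 13 of 14, 24 of 26, 18 of 18 and 9 of 9 genes were below 0. At 24 h 0 members of these lists were called in either direction, and at 96 h 1 was, CCND3.

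GMNN, geminin, the inhibitor of CDT1, measured 27.5 and 26.8 TPM at 0 h, and at 48 h 6.37 and 10.9 TPM (log2 fold change -1.59, SE 0.39, limma adjusted p = 0.0307). Its 48 h libraries lay below those of 0 h.

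Among regulators, E2F8, a repressor of E2F targets that is itself induced in S phase, fell at 48 h (log2 fold change -1.74, SE 0.41, limma adjusted p = 0.0272), from 3.85 and 5.24 to 0.180 and 1.30 TPM. E2F7, its relative, measured 5.61 and 7.16 TPM at 0 h, 2.76 and 2.49 TPM at 48 h, and at 96 h 8.06 and 1.78 TPM, with no call (-1.02, adjusted p = 0.239 at 48 h by limma). CCND3, a D-type cyclin that acts on the retinoblastoma protein, measured 64.1 and 85.95 TPM at 0 h, 11.6 and 25.4 TPM at 48 h, and at 96 h 16.3 and 26.7 TPM. It fell at both times (log2 fold change -2.05, SE 0.36, limma adjusted p = 0.00924 at 48 h and log2 fold change -1.78, SE 0.36, limma adjusted p = 0.0255 at 96 h, where TMM scaling gave an adjusted p of 0.0601). CCND1, another D-type cyclin, measured 60.4 and 53.02 TPM at 0 h, 70.3 and 28.98 TPM at 48 h, and at 96 h 92.4 and 14.5 TPM, so the replicates lay on either side of 0 h. CDKN1A, the CDK inhibitor p21, measured 51.03 and 28.3 TPM at 0 h, 60.7 and 57.1 TPM at 24 h, 61.8 and 43.4 TPM at 48 h, and at 96 h 70.1 and 24.9 TPM. It was not called at 24, 48 or 96 h (log2 fold change 0.44, SE 0.47, limma adjusted p = 0.528 at 48 h).

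The 30 mitosis and G2/M genes are the set most like the replication genes. At 48 h 8 of 30 were called lower and 0 higher (median -1.82), and 22 were called with the block, beside 33 and 44 of 45 replication genes with a median of -1.64. The replicates of the mitosis genes stood further apart at 48, 72 and 96 h. Their medians against the 0 h library of the same number were -2.22 and -1.35 at 48 h, -2.18 and -0.96 at 72 h, and -0.37 and -1.62 at 96 h. Those of the replication genes were -1.85 and -1.41, -1.50 and -1.08, and -0.85 and -1.31. The difference between the sets was not tested. MKI67, the proliferation marker Ki-67, measured 50.8 and 59.4 TPM at 0 h, 2.53 and 10.1 TPM at 48 h, and at 96 h 43.99 and 8.37 TPM, and CCNA2, the cyclin of S phase and G2, 30.4 and 38.4, 5.54 and 15.4 and 22.1 and 13.8 TPM. MKI67 fell at 48 h (log2 fold change -3.16, SE 0.85, limma adjusted p = 0.0423), and CCNA2 missed the threshold there (log2 fold change -1.76, SE 0.54, limma adjusted p = 0.0620).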

How the data were processed

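The deposited values are TPM per gene for 16 RNA-seq libraries, made by the authors with Bowtie and RSEM per the submitters' processing notes, which give no versions. Their genome build, annotation and strand setting were not given in the sources used here. Such values keep no read totals, so depth is unknown and no counting interval could be given. Total RNA was extracted with Trizol and made into Illumina TruSeq libraries, per the labels' protocols.

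Values were analysed as log2(TPM + 1), which understates changes of low genes. The filter kept genes that reached 1 TPM in 2 or more libraries. limma 3.58.1 in R 4.3.3 fitted 1 mean per time over all 16 libraries, with a mean trend and two-sided tests. P-values were adjusted by Benjamini-Hochberg over all genes past the filter within each comparison, and called below 0.05. With 2 libraries against 2, an exact permutation p is at least 0.333, and none was used. The fit was run on simulated data with independent libraries. Libraries of 1 replicate number were correlated in the real data, so that run gives no error rate for them.

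Deviations from the mean of each time were correlated between libraries of 1 replicate number. The correlation was above 0.1 in 28 of 28 pairs of times (lowest 0.128, median 0.438), and in 27 of 28 with TMM scaling. The pairing comes from the numbers in the sample labels and this check. No 2 libraries of the 120 pairs were identical (highest correlation 0.989).

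Alternatives were the replicate block, TMM scaling (30% of M and 5% of A values trimmed on each side), both together, a scale without the 6 small RNAs, a pseudocount of 0.1, no filter, a filter of 5 TPM, only the times compared, and leaving out each library. Leaving out 36 h and 48 h replicate 2 together, scaling and block without 1 of the 48 h libraries, the comparison of 96 h with 48 h and the settings for single genes at 48 h were added after the data were seen.

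The members, their 10 roles, the other lists and the marker lists were chosen with earlier results of these data known. Values by library were given by rule for each member called against 0 h, for the member of each role with the highest mean TPM and with the largest change at 96 h, for up to 2 called genes per direction of each other list at 24 and 96 h, and for E2F7, E2F8, CDKN1A, CCND1, GMNN, CCNA2 and MKI67. 1 further gene of the rule is not reported here. ORC6, CDT1, POLE, POLD3, RFC3, RPA1, CCNE2, UHRF1 and CHAF1A are outside the rule and were added to complete the roles after their values were seen. Rows of processed copies of PCNA, RRM2, FEN1, RFC3 and RPA2 held at most 0.17 TPM. Promoter windows and their sequence are from RefSeq on GRCh38.p14.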

Additional observations from a re-analysis of the deposited data

How the results depend on the processing

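In none of the alternatives run was a member called higher. At 48 h, 33 members were called lower, 17 with TMM scaling, 20 without the 6 small RNAs in the scale, 15 with no filter, and 6 with scaling and block without 48 h replicate 1. Each of the 17, 20 and 15 was among the 33. At 72 h the count of 2 became 13 with the replicate block, 9 with TMM scaling, 31 with both, 5 without the small RNAs, 8 with only the times compared, 4 without 36 h and 48 h replicate 2 together, 1 with a pseudocount of 0.1 and 0 with no filter. At 96 h the count of 1 became 3 with the replicate block, 2 with TMM scaling, 13 with both, 2 without the small RNAs, and 0 with a pseudocount of 0.1, with no filter and with only the times compared. At 36 h the count of 0 became 1 with the block, 1 with TMM scaling and 6 with both. At 6 h it became 12 with only the times compared (20.3% of all genes called lower). Over the whole course the count of 0 became 8 with the block, 2 with TMM scaling and 23 with both. Over all genes the whole-course calls were 292 as deposited, 1040 with the block, 551 with TMM scaling and 1975 with both. Leaving out 1 library gave 0 to 35 calls at 48 h, 0 to 7 at 72 h, 0 to 0 at 96 h and 0 to 1 over the whole course. With the replicate block alone the count at 48 h was 44, holding all 33. Where no share of all genes is given for a count here or above, the count cannot be read as particular to the members. The block left the counts at 6, 12 and 24 h, between the phases and for 96 h against 48 h at 0. At 24 h, where no member was called, the log2 fold change of TYMS ranged from -1.33 to 0.019, that of CLSPN from -0.60 to 0.058 and that of CCNE1 from -0.30 to 0.17 when 1 library was left out, each above 0 without 24 h replicate 2 and CCNE1 also without 0 h replicate 2 (0.076). CCNE1 was also above 0 with TMM scaling (0.081, with or without the replicate block) and without the small RNAs (0.014). The cause of these changes was not tested. With 2 libraries per time and unknown depth, a change that missed the threshold may still be present.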

Other observations

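Some ratios between members differed between the replicate series, as seen after the values were known. The ratio of RPA3 to RPA1 TPM was higher in replicate 2 than in replicate 1 at 8 of 8 times. It was 1.31 and 1.89 at 0 h, 0.789 and 2.28 at 12 h, 0.470 and 1.53 at 72 h and 0.758 and 1.62 at 96 h, and 0.470 to 3.02 over all libraries. The ratio of TYMS to RRM1 was higher in replicate 1 at 7 of 8 times, with 0.838 and 0.659 at 0 h, 1.19 and 0.448 at 12 h and 0.770 and 0.384 at 96 h, and with 0.308 and 0.371 at 48 h as the exception. No test was made of these differences.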
